A study of Homo sapiens with 12 samples.

Results

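The stretch of the long arm of chromosome 5 from 145 to 165 Mb (hg38) held 814 of the 158028 regions in the authors' deposited lists, 341 of them for the histone variant H2A.Z and 473 for its acetylated form H2A.Zac. A region was a member when the midpoint between its start and end lay in the stretch. The stretch was chosen by the direction of these same regions, since nearly all changed H2A.Z regions in it were higher in the mutant line, so the direction counts below are descriptions and no test was made of them. The cells were K562, an established line from a chronic myeloid leukemia, in which EP400 was tagged homozygously at its C terminus with a degron (EP400-dTAG, from 1 clone), and the marks were mapped by ChIP-seq. Onto this background either WT EP400 or EP400 without the SANT and HD domains that hold TRRAP (ΔTRRAP) was expressed from the AAVS1 safe harbor locus, again as 1 clone for each line. Both lines received 500 nM dTAGV-1 for 24 h to remove the endogenous protein. Each line gave 2 biological replicates of H2A.Z ChIP, of H2A.Zac ChIP and of input, 12 libraries in all. Because each EP400 form was represented by 1 clone, a difference between the EP400 forms and a difference between the clones cannot be told apart. DNA copy number over the stretch was not analysed here in either clone, so a difference in copy number and a difference in the marks cannot be told apart either.

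Each mark came as 3 lists, with the regions higher in ΔTRRAP (called gained here), those higher in WT (called lost) and those unchanged. A region has a position and a single score, the log10 likelihood ratio between the lines, which is at least 3 in the gained and lost lists and under 3 in the unchanged list. A likelihood ratio depends on read depth in addition to the size of the change, so it ranks regions and gives no fold. The replicates were merged before the comparison, so the lists hold no value per replicate, no spread can be given, and library depth is not known here. Of 15 erythroid and megakaryocytic marker genes, 11 had an H2A.Zac region within 1 kb of their transcription start site (TSS). An H2A.Z region was found at 4 of the 15, and ALAS2, EPB42, GATA1 and GP9 had neither. Outside the stretch 12934 of 19923 protein-coding genes had a region of either mark, and unchanged H2A.Z was listed at 57.6% of them all. The marker counts therefore do not check the cell label.

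H2A.Z is a variant of histone H2A that sits in the nucleosomes next to active and poised promoters and at enhancers. In human cells it is placed there by the EP400 and SRCAP remodelers, and in the TIP60 complex, which EP400 scaffolds, the KAT5 subunit acetylates it, while TRRAP is the large subunit that contacts transcription factors. The distal long arm of chromosome 5 is known in hematology for the deletions of myeloid neoplasms, in which loss of one copy of RPS14, CSNK1A1 and the miR-145 and miR-146a genes has been linked to features of the 5q- syndrome. K562 itself is an erythroid-like line, and many genes of the stretch, such as the GABA receptor cluster and the SPINK inhibitors, belong to other tissues.

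Some sequences of sites with high scores, and of 1 gene known from the 5q deletions, are shown here so that the later values can be read against them. The first set holds RefSeq promoters (GRCh38.p14, 250 bases before to 50 after the start, 5′ to 3′ on the gene's strand) of CCNG1, which had the highest H2A.Z score at a TSS in the stretch (chr5:163437321-163437620, plus strand), HMMR, under the widest gained H2A.Zac region at a protein-coding TSS (chr5:163460382-163460681, plus strand), RPS14, the ribosomal protein gene of the 5q- syndrome (chr5:150449690-150449989, minus strand), and ADAM19, with the highest H2A.Zac score at a TSS (chr5:157575726-157576025, minus strand). Capitals mark matches on either strand to the GC box GGGCGG, the CCAAT box, the E-box CACGTG, the GATA motif AGATAA, the AP-1 motif TGACTCA or the TATA motif TATAAA, and the sequences follow.
CCNG1: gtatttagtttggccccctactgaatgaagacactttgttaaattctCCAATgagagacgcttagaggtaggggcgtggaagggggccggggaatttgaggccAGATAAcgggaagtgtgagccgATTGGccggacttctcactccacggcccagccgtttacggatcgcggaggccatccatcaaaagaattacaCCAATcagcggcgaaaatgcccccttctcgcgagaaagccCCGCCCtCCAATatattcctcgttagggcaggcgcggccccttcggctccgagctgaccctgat
HMMR: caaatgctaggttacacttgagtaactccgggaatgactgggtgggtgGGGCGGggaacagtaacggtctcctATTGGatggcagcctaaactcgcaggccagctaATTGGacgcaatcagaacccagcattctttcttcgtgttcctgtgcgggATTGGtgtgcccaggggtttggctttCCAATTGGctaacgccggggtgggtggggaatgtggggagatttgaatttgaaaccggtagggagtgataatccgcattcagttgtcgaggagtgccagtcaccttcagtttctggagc
RPS14: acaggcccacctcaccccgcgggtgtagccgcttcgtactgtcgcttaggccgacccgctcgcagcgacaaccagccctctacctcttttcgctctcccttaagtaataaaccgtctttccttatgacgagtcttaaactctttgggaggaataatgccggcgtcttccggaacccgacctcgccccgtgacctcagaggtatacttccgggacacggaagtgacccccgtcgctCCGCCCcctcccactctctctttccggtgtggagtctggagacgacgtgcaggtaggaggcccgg
ADAM19: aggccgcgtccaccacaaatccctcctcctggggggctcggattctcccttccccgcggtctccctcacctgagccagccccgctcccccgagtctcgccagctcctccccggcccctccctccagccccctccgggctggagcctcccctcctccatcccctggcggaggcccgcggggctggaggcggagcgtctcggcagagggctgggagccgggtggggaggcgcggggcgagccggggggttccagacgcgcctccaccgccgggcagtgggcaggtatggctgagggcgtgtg

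The CCNG1 window held 4 CCAAT matches with 1 GC box and 1 GATA match, and the HMMR window 5 CCAAT matches, 2 of them sharing bases, with 1 GC box. The RPS14 window held 1 GC box, and the ADAM19 window, at 75.7% GC, held none of these letters.

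The second set comes from hg38, on the plus strand and with the same capitals. It shows 300 bases from the center of the lost H2A.Z region over exon 10 of PDGFRB (chr5:150129707-150130006), the highest-scoring H2A.Z loss, and from the center of the highest-scoring distal H2A.Z gain, in the long noncoding RNA gene LINC03000 (chr5:164356499-164356798).
PDGFRB exon 10: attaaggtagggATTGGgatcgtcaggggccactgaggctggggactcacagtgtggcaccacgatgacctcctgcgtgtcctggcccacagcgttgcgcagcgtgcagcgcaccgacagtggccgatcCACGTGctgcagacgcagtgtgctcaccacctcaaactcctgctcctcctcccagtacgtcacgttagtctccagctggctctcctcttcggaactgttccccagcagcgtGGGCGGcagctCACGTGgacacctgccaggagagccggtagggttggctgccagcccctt
LINC03000: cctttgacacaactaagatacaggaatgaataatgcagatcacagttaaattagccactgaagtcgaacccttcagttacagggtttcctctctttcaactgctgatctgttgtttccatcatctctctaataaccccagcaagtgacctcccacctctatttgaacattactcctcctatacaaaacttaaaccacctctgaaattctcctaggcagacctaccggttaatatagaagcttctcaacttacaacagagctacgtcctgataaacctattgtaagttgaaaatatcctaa

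The PDGFRB center held 2 E-box matches, 1 GC box and 1 CCAAT match, and the LINC03000 center none of the 6 motifs. They differed in base composition, with 63.3% GC and 18 CpG dinucleotides in the former and 39.7% GC and 3 CpG in the latter. A match is a description of the letters and not a binding site.

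The stretch held 181 gained, 6 lost and 154 unchanged H2A.Z regions. Over the whole series 14.1% of listed H2A.Z regions were gained and 19.8% lost, and 41.6% of the changed ones were gained. In the stretch the gained share was 53.1% of the listed and 96.8% of the changed regions, the quantity by which the stretch was picked. The H2A.Zac regions numbered 218 gained, 47 lost and 208 unchanged, so that 46.1% of the listed and 82.3% of the changed regions were gained, beside 26.3% gained and 25.9% lost of all listed H2A.Zac regions and 50.4% gained of the changed ones. Unchanged and lost H2A.Z regions together numbered 160 here, and unchanged and gained ones 335, a ratio of 2.09 against 0.933 over the whole series. For H2A.Zac these sums were 255 and 426, a ratio of 1.67 against 1.01. The ratios restate the class counts. A gained region is higher in ΔTRRAP and may also be marked in WT, so the sums are not the regions present in each line.

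**Figure D1:**
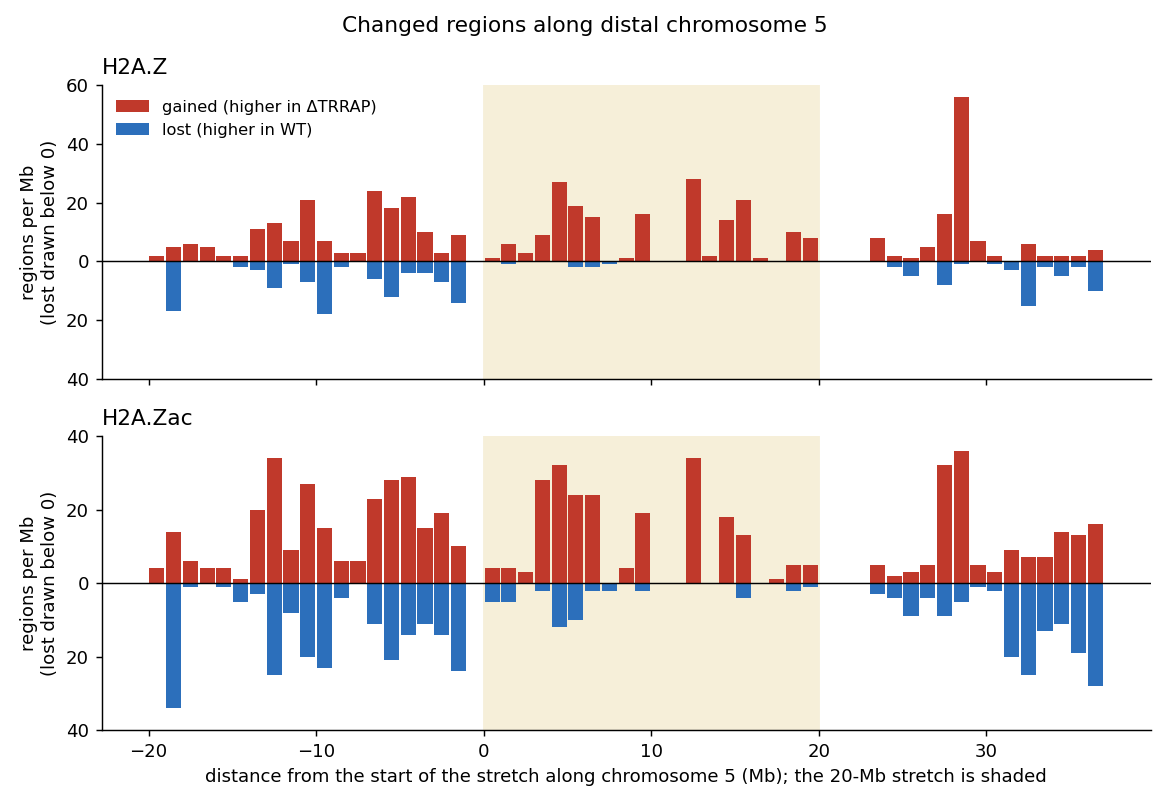
Gained (red, upward) and lost (blue, downward) regions per 1 Mb along the distal part of chromosome 5, H2A.Z above and H2A.Zac below, against the distance in Mb from the start of the stretch, which is shaded. Lost H2A.Z regions appear in only 4 of the 20 shaded bins, whereas both directions are seen on either side. Single bins outside can also hold nearly all gains, such as that from 173 to 174 Mb with 56 gained H2A.Z regions and 1 lost.

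The surroundings of the stretch were more mixed. In the 20 Mb before it, 62.0% of the changed H2A.Z and 55.6% of the changed H2A.Zac regions were gained, and from its end to the end of the chromosome 67.7% and 50.6% were. Over the rest of chromosome 5 the shares were 51.5% (487 gained, 458 lost) and 51.1% (971 gained, 928 lost). On the stretches of 12q from 115 to 130 Mb and of 3q from 190 to 198.3 Mb, which were picked for the opposite direction, 0.971% and 3.09% of the changed H2A.Z regions and 13.4% and 10.1% of the changed H2A.Zac regions were gained. The unchanged class took 45.2% of the listed H2A.Z regions in the 5q stretch, so the stretch was not a block of gained regions alone.

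**Figure D2:**
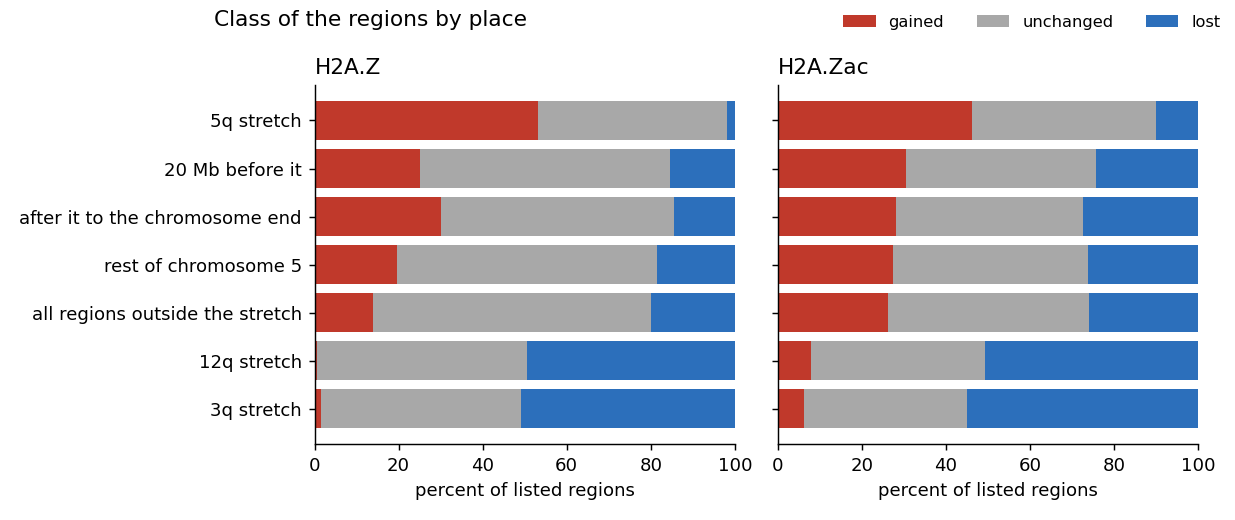
Share of the listed regions that were gained (red), unchanged (gray) or lost (blue) in the 5q stretch, its surroundings and the 12q and 3q stretches, H2A.Z on the left and H2A.Zac on the right. The 5q stretch has the largest gained part of the places drawn, 53.1% of the H2A.Z and 46.1% of the H2A.Zac regions.

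The limits at 145 and 165 Mb are round numbers and fall in sparsely marked DNA. The nearest regions before the start were unchanged, with an H2A.Z score of 0.154 at 0.829 Mb from the limit, and the nearest after it were a lost H2A.Zac region with a score of 4.78 at 0.479 Mb and an unchanged H2A.Z region with a score of 1.51 at 0.698 Mb. The nearest gained H2A.Z regions lay at the PRELID2 TSS inside (5.99) and 1.30 Mb before the limit outside (9.11). At the far end the last H2A.Z regions inside were gained with scores of 14.8, 22.4 and 21.6 and the last H2A.Zac region inside with 37.4, whereas the nearest regions outside, 1.97 Mb from the limit, were unchanged with scores of 0.267 and 0.518.

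The regions were not spread evenly over the stretch, and the share that was gained differed along it. Of the 20 bins of 1 Mb, 3 held no H2A.Z region, 16 held more gained than lost H2A.Z regions and 1 held more lost than gained, from 152 to 153 Mb, with 1 lost region and no gained one. For H2A.Zac, 13 bins held more gained and 3 more lost regions. In the 5-Mb windows the listed H2A.Z regions were gained in 39.7% from 145 to 150 Mb (46 of 116), in 44.0% from 150 to 155 Mb (51 of 116), in 74.6% from 155 to 160 Mb (44 of 59) and in 80.0% from 160 to 165 Mb (40 of 50). The 6 lost H2A.Z regions all lay before 153 Mb, as did 38 of the 47 lost H2A.Zac regions. H2A.Zac followed the same order only in part, with 39.4%, 41.3%, 77.6% and 44.4% gained. From 155 to 160 Mb no region of either mark was lost.

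The gained regions past 155 Mb also had the higher scores. The median score of gained H2A.Z regions was 5.77, 6.25, 9.29 and 10.7 in the 4 windows, and that of gained H2A.Zac regions 7.46, 9.27, 15.6 and 13.7. In the stretch as a whole the median score of a gained region was 7.58 for H2A.Z and 9.47 for H2A.Zac, against 5.45 and 6.86 outside it. Scores of at least 10 were held by 26.5% and 48.2% of gained regions against 9.73% and 26.1%. From its end to the end of the chromosome the gained medians were 9.08 and 8.57, with 45.1% and 38.9% at 10 or more. High H2A.Z scores were thus not particular to the stretch. Its gained regions were also wider than those outside, with a median of 643 bp against 446 bp for H2A.Z and 1102 bp against 661 bp for H2A.Zac. After its end these widths were 634 bp and 717 bp. The lost regions had lower scores, with a median of 5.65 and a highest value of 7.47 for H2A.Z, and for H2A.Zac a median of 6.77 and 14.9% at 10 or more, against 8.28 and 38.9% outside. Unchanged regions of the stretch were narrower than elsewhere, with medians of 540 bp against 699 bp for H2A.Z and 530 bp against 736 bp for H2A.Zac. Unchanged and gained regions of a mark can touch or nest, and why they do was not tested. Of the 154 unchanged H2A.Z regions 61 touched a gained H2A.Z region, which is 39.6% against 10.1% outside. Of the 208 unchanged H2A.Zac regions 93 touched a gained one, 44.7% against 33.9%. Counted from the gained regions, the shares touching an unchanged one were lower than outside. They were 32.0% against 46.4% for H2A.Z and 39.0% against 55.9% for H2A.Zac.

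**Figure D3:**
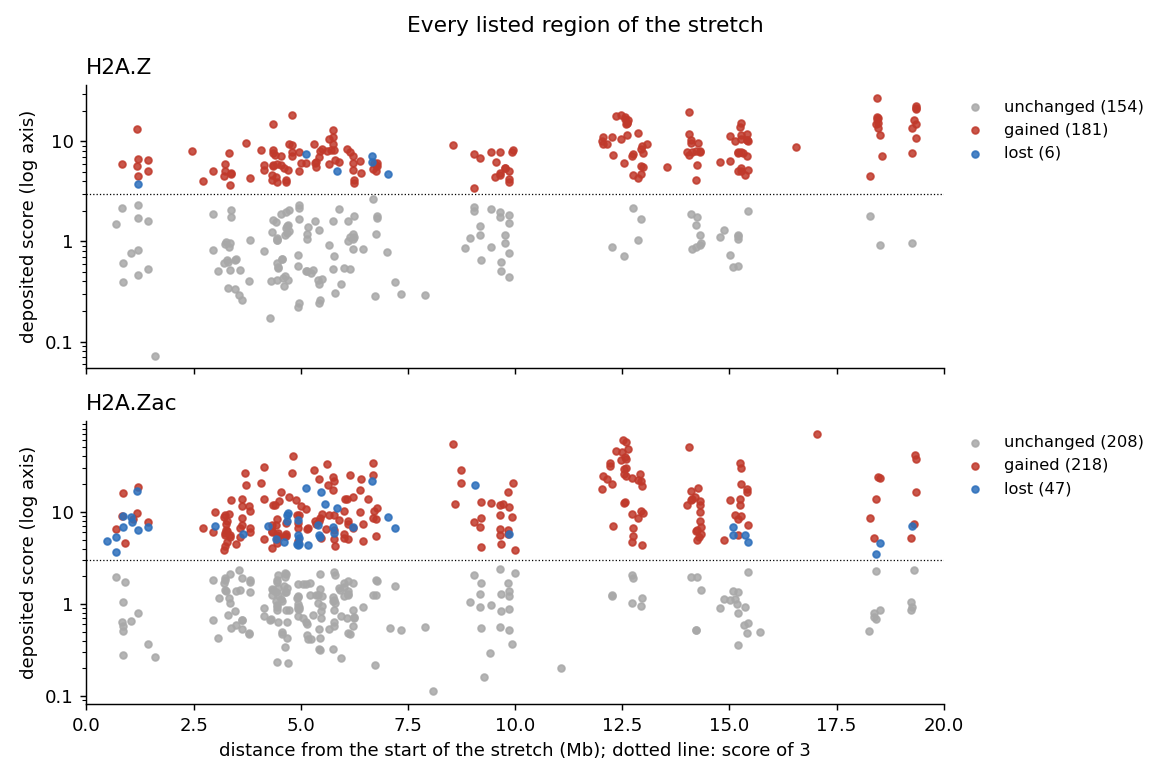
Score of every listed region of the stretch on a log axis against its distance from the start of the stretch in Mb, H2A.Z above and H2A.Zac below, with gained regions in red, lost in blue and unchanged in gray and a dotted line at a score of 3. Lost H2A.Z regions stop before 8 Mb from the start, and H2A.Zac scores above 50 lie from 12 Mb onward, apart from 1 of 54.1 in GRIA1.

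Among the TSS-proximal regions, those reaching to within 1 kb of a gene's TSS, 79 H2A.Z regions were gained, 1 lost and 52 unchanged, and 62 H2A.Zac regions were gained, 9 lost and 60 unchanged. The gained shares of the changed regions were 98.8% and 87.3%. Away from TSSs the counts were 102, 5 and 102 for H2A.Z and 156, 38 and 148 for H2A.Zac, with gained shares of 95.3% and 80.4%. Outside the stretch gained regions made up 58.7% and 63.8% of changed TSS-proximal and 35.0% and 44.4% of changed TSS-distal regions. With nearly all changed H2A.Z regions of the stretch gained by its choice, nothing is read from the gap between its TSSs and distal sites. By position, 89 of the gained H2A.Z regions were centered in an intron of a protein-coding gene, 20 in an exon, 27 in another kind of gene and 45 between genes. The 218 gained H2A.Zac regions were centered in an intron in 108 cases, an exon in 23, another kind of gene in 28 and between genes in 59.

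The stretch holds the TSS of 123 protein-coding genes, and 72 of them had a region of either mark within 1 kb. A gained H2A.Z region was found at 60 genes (48.8%, against 12.8% of the 19923 genes outside), a gained H2A.Zac region at 56 (45.5% against 34.6%), and both at 51 (41.5% against 10.1%). These genes are fewer separate sites than their number, because the highest-scoring gained region was shared by neighboring TSSs, with 50 different H2A.Z and 47 different H2A.Zac regions. A gained and an unchanged region of a mark could stand at the same TSS. Of the 51 genes with both gains, 15 had gained regions alone for both marks. A further 21 had gained and unchanged regions of both marks. Unchanged H2A.Z was listed at 28.5% of the genes of the stretch and at 57.6% of those outside. A region of either mark was lost at 6 genes (4.88%, against 18.2% outside). The remaining 51 genes had no region at the TSS.

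**Figure D4:**
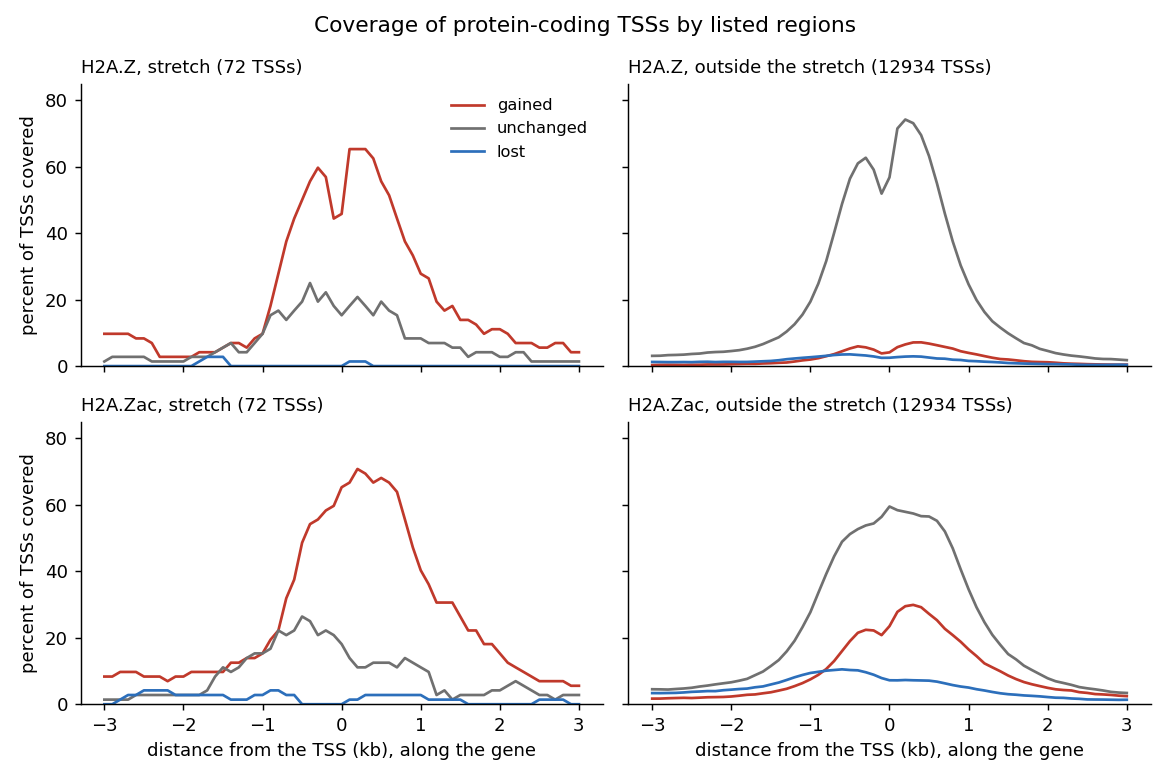
Percent of TSSs covered at each distance from the TSS (kb, negative upstream) by gained (red), unchanged (gray) and lost (blue) regions, for the 72 protein-coding TSSs of the stretch with a region within 1 kb on the left and the 12934 such TSSs outside it on the right, H2A.Z above and H2A.Zac below. In the stretch gained H2A.Z peaks at 65.3% and dips near the TSS, and outside it unchanged H2A.Z peaks at 74.2% and also dips near the TSS.

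At these 72 TSSs gained H2A.Z had a dip near the TSS, as did both unchanged and gained H2A.Z elsewhere. Gained H2A.Z covered 65.3% of TSSs at 0.1 kb downstream and fell to 45.8% at the TSS itself. Outside the stretch unchanged H2A.Z covered 74.2% at 0.2 kb downstream and 56.8% at the TSS, and gained H2A.Z at most 7.15%, with 4.13% at the TSS. Gained H2A.Zac peaked at 70.8% in the stretch, 0.2 kb downstream, against 29.9% at 0.3 kb outside, whereas unchanged H2A.Zac outside was highest at the TSS itself (59.5%).

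The genes with gains of both marks were led by ADAM19, a membrane metalloprotease, with scores of 17.6 for H2A.Z (chr5:157575005-157576516, over exon 1) and 57.7 for H2A.Zac (chr5:157574808-157577896). DCTN4, a dynactin subunit, followed with 13.1 and 23.8. The divergent TSSs of NUDCD2 and of HMMR, a hyaluronan receptor that also acts on the mitotic spindle, shared a score of 15.4 for H2A.Z and of 23.6 for H2A.Zac, the latter over 6277 bp (chr5:163457757-163464033). MAT2B, the regulatory subunit of methionine adenosyltransferase, had 11.7 and 23.4.

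The next genes belonged to several cell types and functions. HAVCR2, the immune checkpoint receptor TIM-3, had 9.52 and 22.5. CLINT1, a clathrin adaptor, had 12.2 and 22.1, and SH3TC2, an endosomal protein of Schwann cells, 8.23 and 20.5. MRPL22, of the mitochondrial ribosome, had 8.28 and 20.3, and CYFIP2, of the actin-regulating WAVE complex, had 11.1 for H2A.Z with an H2A.Zac score just under that of MRPL22. RBM27, an RNA-binding protein which shares its gained regions with the readthrough gene ENSG00000275740, had 6.72 and 18.7. UBLCP1, a phosphatase of the proteasome, had 9.68 and 18.1, and EBF1, the B lineage transcription factor, 10.3 and 16.9. Over all genes with a gain at the TSS, the score ranged from 4.33 to 27.3 with a median of 7.97 for H2A.Z (60 genes) and from 4.46 to 57.7 with a median of 11.5 for H2A.Zac (56 genes).

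**Figure D5:**
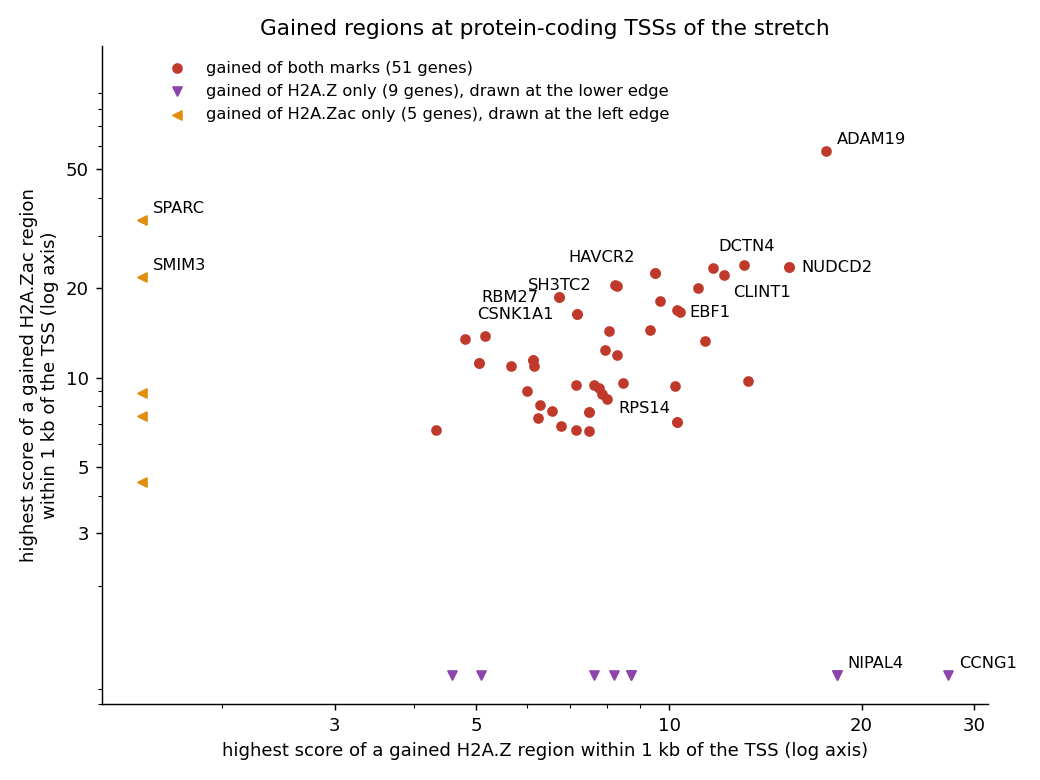
Highest score of a gained H2A.Z region (horizontal, log axis) and of a gained H2A.Zac region (vertical, log axis) within 1 kb of the TSS, 1 point for each protein-coding gene of the stretch. Red points are the 51 genes gained for both marks, purple triangles at the lower edge the 9 gained for H2A.Z alone and orange triangles at the left edge the 5 gained for H2A.Zac alone; ADAM19 stands above all others for H2A.Zac and CCNG1 farthest right.

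Of the genes with a gain of a single mark, 9 had H2A.Z and 5 had H2A.Zac. CCNG1, a cyclin induced by p53, had the highest H2A.Z score of the stretch, 27.3 (chr5:163437581-163438238, centered in an intron and starting inside the promoter printed above), a further gained H2A.Z region of 17.4 directly upstream (chr5:163435487-163437314), and no H2A.Zac region at the TSS. NIPAL4, a membrane transporter of the epidermis, and its divergent neighbor ENSG00000285868 shared H2A.Z at 18.3 and had no H2A.Zac. GABRA6 and GABRB2, subunits of the GABA-A receptor, shared an H2A.Z gain of 8.73. RBM22, a splicing factor, had 8.20, PCYOX1L 7.63, FABP6 5.09 and C1QTNF2 4.58. On the other side, SPARC, a matrix glycoprotein deleted in 5q- disease, had the second-highest H2A.Zac score at a TSS, 33.9 over 2979 bp (chr5:151684541-151687519), with no H2A.Z region of any class. SMIM3 had 21.7 and SPINK6 8.89, also without an H2A.Z region, and SPINK13 (7.46) and LARP1 (4.46) were the 2 genes gained for H2A.Zac over unchanged H2A.Z alone.

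The genes were also grouped by function, in lists set with earlier results of these data known. All 14 genes of the list for RNA processing and translation, which also holds the zinc finger gene ZNF300, had a region at the TSS, 13 had gained H2A.Z, 13 had gained H2A.Zac and 12 had both, beside 60, 56 and 51 of the 72 genes with a region. A lost H2A.Zac region was also listed at 2 of the 14. No test of the difference was made for this or the following lists. LARS1, the leucyl-tRNA synthetase, had 13.3 for H2A.Z and 9.75 for H2A.Zac, and RPS14 8.01 and 8.50. SLU7, a splicing factor that shares its gained regions with the divergent PTTG1, had 10.3 and 7.11, TCOF1, which drives ribosomal RNA synthesis, 6.25 and 7.34, and GEMIN5, of the SMN complex, 7.87 and 8.80.

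Of the 123 genes 48.8% had gained H2A.Z, 45.5% gained H2A.Zac and 41.5% both, and 51 had no region, and the counts of the next lists are given beside these. In a list of 11 genes for the cell cycle, which also holds CLINT1, GRPEL2 and MAT2B with other known roles, 8 had gained H2A.Z and 7 gained H2A.Zac. MAT2B also had a lost H2A.Zac region, and KIF4B and PPP2R2B had no region. PTTG1 is the securin that restrains separase. CCNJL, a cyclin-like gene, had only unchanged H2A.Zac (0.595). Of 13 genes for transcription and chromatin, 7 had gains of both marks, 1 of them with a lost H2A.Zac region as well, and 6 had no region. The gained ones included PPARGC1B, a coactivator of mitochondrial genes (9.33 and 14.4), SAP30L, of the SIN3 corepressor (7.93 and 12.4), HMGXB3 (6.12 and 11.5), ZNF300 (6.29 and 8.12) and PWWP2A, itself a binder of H2A.Z nucleosomes (10.2 and 9.35). The tissue-restricted POU4F3, CDX1, HAND1 and SOX30 had no region at the TSS.

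Other lists hold mostly tissue-restricted genes. Of 13 receptor, cytokine and immune cell genes, 7 had no region and 3 had gains of both marks, HAVCR2 among them, and CD74 had a lost H2A.Zac region. CSF1R, the macrophage growth factor receptor, had only an unchanged H2A.Zac region (0.632), and IL12B unchanged regions of both marks (0.957 and 1.42). PDGFRB had no region at the TSS. Of 8 neuronal genes, for GABA-A, glutamate and glycine receptor subunits and for CAMK2A and SLC6A7, 6 had no region and none had gained H2A.Zac at the TSS. Of 8 genes of the SPINK protease inhibitor cluster, SCGB3A2 beside them included, 5 had no region, and SPINK9 was the 1 with both gains (7.63 and 9.48).

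Of 13 genes tied to the 5q deletion and found in the stretch, 8 had gained H2A.Z, 8 gained H2A.Zac, 7 both and 3 no region, and since the list includes MIR143, MIR145, MIR146A and the long noncoding MIR3142HG, the shares over protein-coding genes are not a like comparison. The 2 with a lost H2A.Zac region were CD74 and MIR145, the latter with gains of both marks as well. CSNK1A1, the kinase whose loss of one copy sensitizes cells to lenalidomide, shared its site with ARHGEF37, with 7.17 and 16.4. G3BP1, of stress granules, had 6.16 and 10.9. The gene records of the miRNAs are the hairpins, so the position used for them is the start of the hairpin and not that of the primary transcript. Within 1 kb of it MIR143 and MIR146A had no region. MIR146A lies inside MIR3142HG, whose TSS had gained H2A.Z (5.22) beside unchanged H2A.Z (2.03) and unchanged H2A.Zac (0.619).

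The miRNA gene MIR145 held all 3 classes of H2A.Zac within 1 kb of the start of its hairpin. A gained H2A.Z region (4.43, chr5:149430540-149431199) and a gained H2A.Zac region (7.15, chr5:149430513-149431164) covered the hairpin. An unchanged H2A.Z region (1.56, chr5:149430177-149431081) covered it as well. A lost H2A.Zac region (5.09, chr5:149431342-149431732) followed downstream, with unchanged H2A.Zac on either side of the H2A.Zac gain (1.08 and 1.35). The hairpin of MIR378A lies in an intron of PPARGC1B, under the gained H2A.Z region at its TSS (9.33, chr5:149730414-149733122) and the gained H2A.Zac region there (14.4, chr5:149731163-149733173). The mature miRNAs of these 2 hairpins, from RefSeq, are shown with the seed, bases 2 to 8, in capitals, and they do not share a seed.
hsa-miR-145-5p: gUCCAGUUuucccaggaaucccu
hsa-miR-378a-3p: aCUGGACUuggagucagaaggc

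Away from TSSs high scores lay in and near ADAM19, EBF1 and LINC03000 and in an intron of a glutamate receptor gene. In an intron of GRIA1, which encodes a subunit of the AMPA receptor, 62.1 kb from the TSS, an H2A.Zac region with 54.1 (chr5:153551438-153552045) covered an H2A.Z region with 9.31. The EBF1 intron, 38.4 kb from the TSS, had 50.6 for H2A.Zac (chr5:159060559-159062522) and 19.6 for H2A.Z (chr5:159060611-159062382). The TSS of GRIA1 had no region of either mark.

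Among the 1-Mb bins of the stretch the most gained regions lay from 157 to 158 Mb, where 28 H2A.Z and 34 H2A.Zac regions were gained, none was lost and 5 and 7 were unchanged. The bin from 149 to 150 Mb came close, with 27 and 32 gained, and held more listed regions, with 35 and 46 unchanged and 12 lost for H2A.Zac. From 157 to 158 Mb the median score of the gained regions was 9.86 for H2A.Z and 22.9 for H2A.Zac, and 76.5% of the gained H2A.Zac regions reached 10. In that bin ADAM19 held an intronic H2A.Zac region of 60.2 (chr5:157510978-157512271) and another of 39.1 over an H2A.Z region of 16.8 (chr5:157570730-157572256). Gained regions continued upstream of the gene to an intergenic one of 47.7 (chr5:157623666-157624734), 47.3 kb from the TSS of SOX30. The neighbors HAVCR1, TIMD4, MED7 and SOX30 had no region at their own TSS.

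The other high H2A.Z scores lay toward the far end. From 163 to 164 Mb 10 H2A.Z regions were gained, 8 of them with a score of at least 10, and from 164 to 165 Mb 8 were gained, 7 of them at 10 or more. In LINC03000, a gained H2A.Zac region of 10396 bp (37.4, chr5:164351869-164362264) covered gained H2A.Z regions of 10.8, 14.8, 22.4 and 21.6, and a further gained H2A.Z region of 21.1 lay just before it (chr5:164350750-164351485). The nearest protein-coding TSS, that of MAT2B, was 854 kb away. In PPARGC1B an intronic H2A.Z region 74.6 kb from the TSS had 18.3 (chr5:149804630-149805124), under a gained H2A.Zac region of 26.2 (chr5:149803666-149807649).

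The lost regions were few, mostly distal and often single. Each of the 6 lost H2A.Z regions had at least 25% of its length under a lost H2A.Zac region, and 5 were distal. Outside the stretch 65.9% of lost H2A.Z regions lay on lost H2A.Zac in this way. PDGFRB, a growth factor receptor of mesenchymal cells, had H2A.Z at 7.47 (chr5:150129672-150130041, exon 10) under H2A.Zac at 18.3 (chr5:150129480-150130415). SPARC, whose TSS had gained H2A.Zac, lost H2A.Z over exon 10 (7.21, chr5:151662965-151663742) and exon 9 (6.25, chr5:151663974-151664337) under H2A.Zac with the highest score of any loss in the stretch, 21.5 (chr5:151662855-151664405, 23.3 kb from the TSS). LINC01933 lost H2A.Z at 4.78 and H2A.Zac at 8.77, and a site 1.60 kb upstream of the neighboring starts of RBM27 and its readthrough gene, where both marks were gained, lost H2A.Z at 3.79 (chr5:146201771-146202134).

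IRGM, an interferon-related GTPase of autophagy, was the only gene with both marks lost at the TSS, H2A.Z at 5.05 and H2A.Zac at 10.9. CD74, the invariant chain of MHC class II, lost H2A.Zac at 7.15 (chr5:150412188-150412744) over unchanged H2A.Z (0.409). PDE6A, a phosphodiesterase of rod cells, lost H2A.Zac at 8.12 (chr5:149943206-149943998). At 3 further genes a lost H2A.Zac region stood near the edge of the window beside gains of both marks at the same TSS. They included CNOT8, a deadenylase (lost 5.78, gained 5.05 for H2A.Z and 11.2 for H2A.Zac), and MAT2B (lost 4.54). A Y RNA gene (5.55) and the pseudogene ENSG00000250114 (3.48) also had lost H2A.Zac within 1 kb. Among the other distal losses, H2A.Zac reached 19.3 in an intron of MFAP3 (chr5:154074839-154076176), 16.9 at 10.4 kb upstream of LARS1 (chr5:146192157-146193967) and 16.6 in NDST1-AS1 (chr5:150476400-150478193), each with no H2A.Z region beneath.

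The classes of the 2 marks were set against each other by position, with a region counted as lying on another list when at least 25% of its length was covered. Of the 218 gained H2A.Zac regions 105 lay on gained H2A.Z (48.2%, against 18.5% of gained H2A.Zac regions outside the stretch), 49 on unchanged H2A.Z (22.5% against 46.2%), none on lost H2A.Z and 88 on no H2A.Z region (40.4% against 42.9%). Some regions lay on more than 1 class. Of the 208 unchanged H2A.Zac regions 44 lay on gained H2A.Z, 21.2% against 3.67% outside. Of the 47 lost H2A.Zac regions 5 lay on lost H2A.Z (10.6% against 28.7% outside) and 14 on unchanged H2A.Z (29.8% against 36.4%). A further share, 29 regions, lay on no H2A.Z region (61.7% against 45.0%), and none lay on gained H2A.Z. In the other direction, 135 of the 181 gained H2A.Z regions lay on gained H2A.Zac, 74.6% against 65.6% outside. The H2A.Z direction chose the stretch, so the share on gained H2A.Z follows in part from the choice and is given as a description.

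Of the 123 protein-coding genes 109 were matched by symbol to a RefSeq promoter, some with more than 1. GC boxes were in 53.6% of the 56 promoters of genes with gains of both marks, in 33.9% of the 59 promoters of genes with no region and in 45.0% of all 35116 promoters of the table. TATAAA was in 1.79%, 16.9% and 11.5% of them, CCAAT in 37.5%, 39.0% and 34.6%, and AGATAA in 1.79%, 5.08% and 10.3%. The genes with a lost region gave only 7 promoters and those with only unchanged regions 7, with a GC box in 57.1% and 42.9%. In the central 300 bases of the distal gained H2A.Zac regions AGATAA was found in 17.9% of 156 regions, against 16.9% of the 148 distal unchanged ones in the stretch and 21.5% of the 618 distal gained ones on the rest of chromosome 5. TGACTCA was found in 9.62%, 7.43% and 11.2% of the same sets.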

How the data were processed

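Per the labels and the methods, the authors aligned paired-end reads to hg38 with Bowtie2 2.4.5, called peaks with MACS2 2.2.7.1, merged the replicates, compared the lines with bdgdiff after scaling to effective depth, and kept regions with at least 25% of their length in peaks reproducible between replicates. The deposited score is the log10 likelihood ratio that bdgdiff gave each region. It was used as deposited, to rank and filter. Scaling, merging and filters are in the lists and were not repeated, and depth is unknown here.

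The 6 lists were read whole. The members and gene lists were chosen with earlier results of these data known. TSSs, exons and gene types came from GENCODE release 44, with the TSS of the gene record and 1 kb to each side. Coverage was computed with numpy 2.4.6 and pandas 2.3.3 and, on 1500 simulated regions, differed from bedtools 2.31.1 in 0 cases. Wilson intervals from scipy 1.17.1 served only to judge whether a share moved under an alternative.

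Named were the genes with a lost region at a TSS, the 15 with the highest H2A.Zac score and both marks gained, up to 10 gained for H2A.Zac over unchanged H2A.Z alone, the 5 highest distal gains of each mark, listed genes and the regions next to the limits. A few items that fall under these rules are not reported here. The other genes were named after their values were seen. The 5 widest unchanged H2A.Zac regions at a TSS, at PPARGC1B, ANXA6, SAP30L and 2 pseudogene or Y RNA TSSs in PDE6A, measured 1399 to 1713 bp. The lists also name MIR143HG, NPM1, LARP1-AS1, POLR2M and ZBED8, which were not found in the stretch. Input libraries and signal tracks were not analysed here, and no test across conditions was made.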

Additional observations from a re-analysis of the deposited data

How the results depend on the processing

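The 11 shares and gene counts were recomputed under 17 other settings, which gave 134 values. Of these 94 stayed within the interval or 1.5 times of the first value and 40 moved, none across 50% for a share of changed regions. The share of changed regions that were gained ran from 95.0 to 100% for H2A.Z and from 77.9 to 93.8% for H2A.Zac.

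Counted in base pairs, 60.7% of listed H2A.Z, 62.3% of listed and 89.1% of changed H2A.Zac, 95.1% of changed TSS-proximal and 86.3% of changed distal H2A.Zac were gained, and 55.8% of gained H2A.Zac lay on gained H2A.Z. With changed regions of a score of at least 10, the shares of changed regions were 100% for H2A.Z and 93.8% for H2A.Zac (96.9% TSS-proximal, 92.5% distal), the shares of listed ones 23.8% and 32.8%, 21.0% of gained H2A.Zac lay on gained and 7.62% on unchanged H2A.Z, and 33 genes had gained H2A.Zac, 17 gained H2A.Z and 1 a loss. With regions of at least 500 bp the values were 99.2% of changed H2A.Z and 58.4% and 54.9% of listed H2A.Z and H2A.Zac. From 150 to 160 Mb alone, 88.5% of changed, 51.5% of listed and 87.0% of changed distal H2A.Zac were gained, at 31 genes for each mark, with 3 genes losing a region.

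With each 5-Mb window left out in turn (leave-one-out), changed regions were gained in 95.8 to 99.2% (H2A.Z) and 77.9 to 86.5% (H2A.Zac; 83.9 to 89.6% TSS-proximal, 75.8 to 85.2% distal) and listed ones in 48.5 to 60.0% and 40.9 to 50.2%. Gained H2A.Zac lay on gained H2A.Z in 45.4 to 53.7% and on unchanged H2A.Z in 15.6 to 26.5%, and 35 to 48 genes had gained H2A.Zac, 41 to 48 gained H2A.Z and 3 to 6 a loss. A TSS window of 500 bp gave 95.0% of changed TSS-proximal H2A.Zac and 2 genes with a loss. Overlap of at least 1 bp put 32.1% of gained H2A.Zac on unchanged H2A.Z, and of at least 50% put 37.2% on gained and 13.8% on unchanged H2A.Z.

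Without unchanged regions touching a changed one of the same mark, an alternative chosen after seeing the data, 64.9% of listed H2A.Z and 60.6% of listed H2A.Zac were gained. The cause of these shifts was not tested beyond the construction of each setting. No paired analysis was possible because replicates were merged ahead of the single comparison behind each list, and for the same reason no replicate could be left out and the precision of a single score cannot be given.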
